A study of Mus musculus with 16 samples.

Results

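The mouse miRNAs mmu-miR-146a, mmu-miR-146b and mmu-miR-155, called miR-146a, miR-146b and miR-155 below, were examined in primary mouse embryonic fibroblasts (MEFs) carried from early to late passage. The miRNAs were taken by name from the scanner files of one-colour Agilent mouse miRNA arrays and are 3 of the 611 mouse miRNAs read there. All 3 were found, and each was read by 2 probes of 10 spots. The arrays held total RNA of wild-type (WT) MEFs and of Ercc1-/- MEFs, which lack a subunit of a DNA repair endonuclease, both on an FVB/n C57Bl/6 background and from mid-gestation embryos. Each genotype was grown in 3% or 20% O2 and collected at passage 3 (P3, early) or passage 7 (P7, late), which makes 8 groups of 2 arrays and 16 arrays in all. The labels name no other treatment. The replicates were 2 independent cell lines, so each genotype rests on 2 lines, and the labels do not say which lines share embryos. MiRNA arrays carry no probe for Ercc1, so the genotypes were not checked here. The comparisons ask whether the miRNAs changed with passage, with loss of Ercc1 and with oxygen, which alter how soon MEFs senesce.

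MiR-146a and miR-146b are made from separate genes and share a seed, the stretch near the 5′ end that pairs with target mRNAs. Transcription of miR-146a is switched on by the inflammatory factor NF-kB, and miR-146 represses the signalling adaptors IRAK1 and TRAF6, which closes a negative feedback loop on interleukin secretion by senescent fibroblasts. MiR-155 is cut from a long non-coding RNA that Toll-like receptor signals induce, and it represses brakes on cytokine signalling such as SOCS1 and SHIP1. MiR-146a and miR-155 are themselves abundant in blood cells.

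The mature sequences are printed because miR-146a and miR-146b are almost identical, so that a reader can see what the probes have to tell apart. They are RefSeq's, given 5′ to 3′ on build GRCm38.p6 with the seed (bases 2 to 8) in capitals, and all 3 names matched.
miR-146a: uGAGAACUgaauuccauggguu
miR-146b: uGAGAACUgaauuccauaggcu
miR-155: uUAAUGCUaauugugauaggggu

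MiR-146a and miR-146b were identical at 20 of 22 positions and differed by G18A and U21C, with the base of miR-146a first and positions counted from the 5′ end. No other mature mouse miRNA in the RefSeq table had the seed GAGAACU, and miR-155 was alone with the seed UAAUGCU. MiR-146a lies at chr11:43374435-43374456 on the minus strand, in the gene Mir146, and no other gene of the table overlapped its hairpin. MiR-146b lies at chr19:46342790-46342811 on the plus strand, in Mir146b, within the span of the lncRNA gene Gm36493. MiR-155 lies at chr16:84714143-84714165 on the plus strand, in Mir155, within the span of the lncRNA gene Mir155hg. Whether those hairpins are exonic or intronic was not analysed here.

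All replicate 1 arrays were on slide 1 and all replicate 2 arrays on slide 2, and slide 2 was dimmer. The mean log2 signal over the 57 mouse miRNAs above background on every array was 7.91 to 9.77 on slide 1 and 5.80 to 8.65 on slide 2, and 117 to 257 mouse miRNAs were above background per array. The dimmest array was replicate 2 of P7 Ercc1-/- MEFs in 20% O2, with a mean of 5.80 and 117 miRNAs above background, and it stands apart in what follows. P3 arrays lay in the first row of each slide and P7 arrays in the second, so passage and array position cannot be told apart. In every row, columns 1 to 4 held WT in 20%, WT in 3%, Ercc1-/- in 20% and Ercc1-/- in 3% O2. Genotype and oxygen therefore cannot be told apart from array position either. Of 8 fibroblast miRNAs, 7 or 8 were above background on each array, against 0 to 3 of 7 blood cell miRNAs and 0 of 2 endothelial miRNAs. In RNA from whole cultures, a change in the mix of cells and a change per cell cannot be told apart.

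All 3 miRNAs were dim. The signals below are the software's processed signal in arbitrary units, averaged over the spots of each probe and then over both probes, and not scaled between arrays. The 434 negative control spots of an array had medians of 0.926 to 2.77 and 95th percentiles of 4.63 to 10.68 across the arrays. A miRNA was called above background where at least 0.5 of the spots of one of its probes were marked well above background by the software. By that call miR-146b was above background on 11 of 16 arrays, and miR-146a and miR-155 on 6 each. Detection followed the slide: on slide 1 the count was 8 of 8 arrays for miR-146b, 6 for miR-146a and 5 for miR-155, and on slide 2 it was 3, 0 and 1. The star strand miR-146b*, which is no member of the set, was above background on no array, with signals from -3.49 to -0.433.

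**Figure D1:**
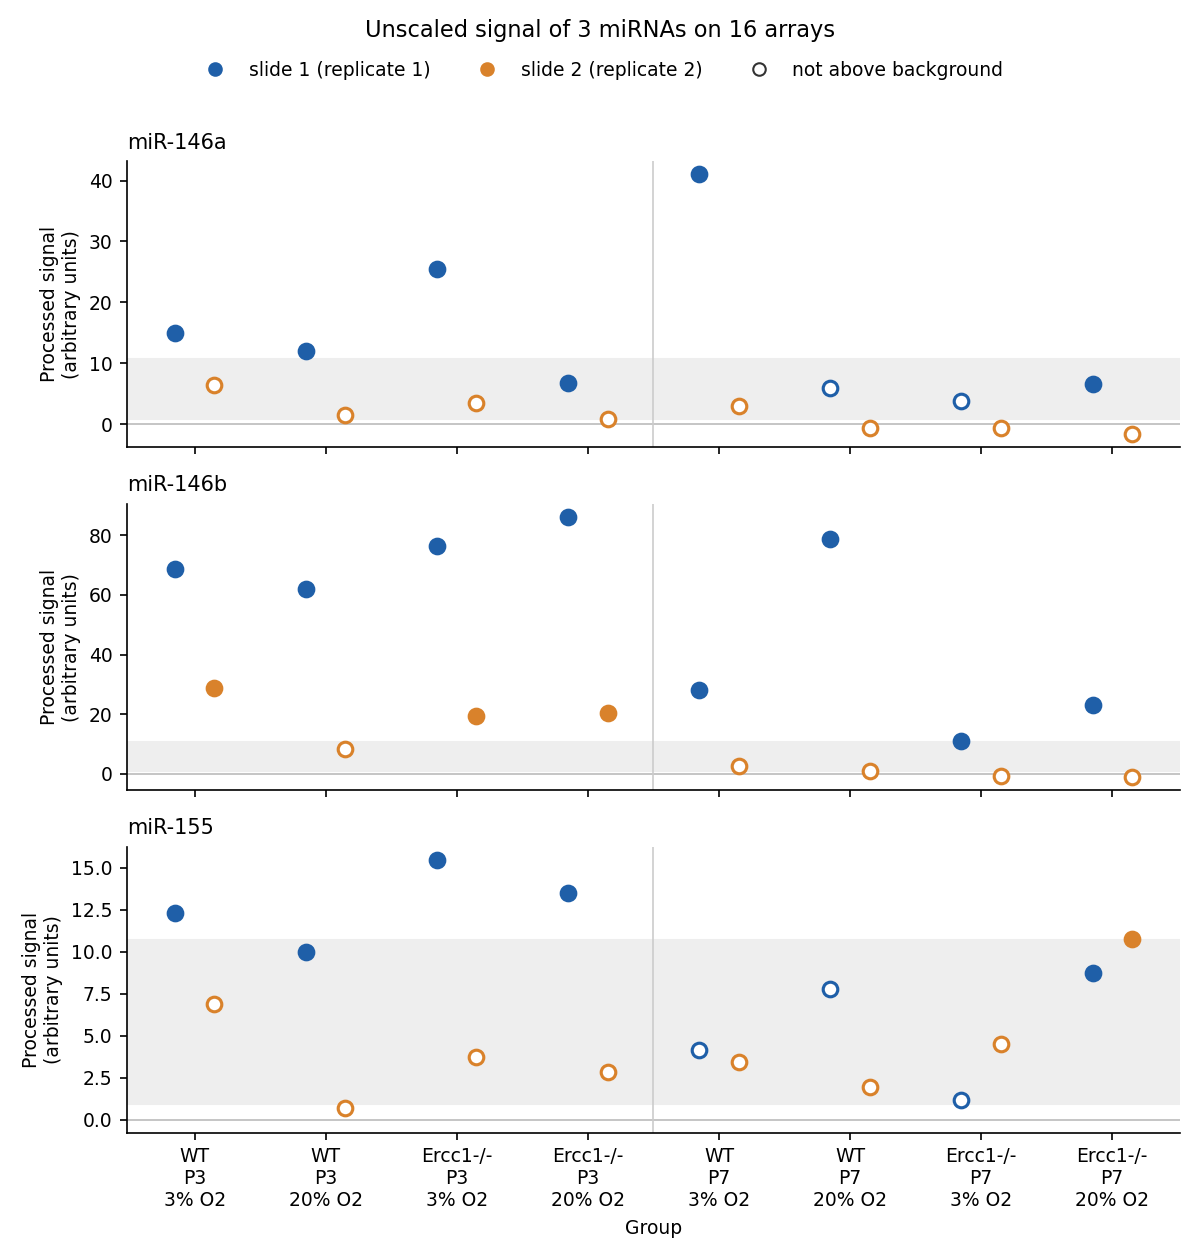
Unscaled processed signal (vertical axis, arbitrary units, a separate scale for each miRNA) of miR-146a, miR-146b and miR-155 in the 8 groups, with 1 point per array, blue for slide 1 and orange for slide 2. Open points were not above background, and the grey band runs from the lowest median of the negative control spots, 0.926, to their highest 95th percentile, 10.68; orange points are filled for miR-146b on 3 P3 arrays and for miR-155 on 1 P7 array, and for miR-146a on none.

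MiR-146a, whose transcription NF-kB switches on, was brightest in WT MEFs in 3% O2 at P7, with 41.0 on replicate 1 and 2.98 on replicate 2. In the same cells at P3 its signals were 14.9 and 6.45. WT MEFs in 20% O2 gave 11.9 and 1.44 at P3, and 5.90 and -0.645 at P7. Only the replicate 1 array of a group was ever above background, so that the replicates of every group disagreed on detection or both missed it.

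In Ercc1-/- MEFs in 3% O2, miR-146a gave 25.5 and 3.43 at P3, and 3.80 and -0.685 at P7. In 20% O2 it gave 6.82 and 0.811 at P3, and 6.60 and -1.68 at P7. No array of P7 Ercc1-/- MEFs in 3% O2 or of P7 WT MEFs in 20% O2 was above background. On scaled signals, P7 WT MEFs in 3% O2 were 1.94-fold brighter than P7 WT MEFs in 20% O2. They were 1.61-fold brighter than P7 Ercc1-/- MEFs in 3% O2. For these folds, signals of the dimmer groups were raised to each array's lowest signal above background where they lay under it. The folds are no lower bounds, since only 1 of the 2 brighter arrays measured miR-146a and the other kept its undetected value.

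Within a slide, genotype and passage, the unscaled signal of miR-146a was higher in 3% than in 20% O2 in 7 of 8 pairs of arrays. The exception was P7 Ercc1-/- MEFs on slide 1, with 3.80 against 6.60. After scaling it was higher in 3% O2 in 7 pairs and equal in the pair where both arrays sat at the floor. The 7 include the exception, where scaling put the undetected 3% array at 5.20 and the detected 20% array at 3.80. That 3% array had 0 of 19 spots well above background and was the dimmer array, with a mean log2 of 7.91 against 9.16. No such count was made over all miRNAs. In 4 of the 8 pairs, all on slide 2, neither array had miR-146a above background. The group means of its scaled log2 signal ran from 3.36 ± 2.00 (SD, n = 2) in P7 WT MEFs in 3% O2 to the floor of 1.497 in P3 Ercc1-/- MEFs in 20% O2, and no neighbours in that order differed by more than the larger of their SDs. Since no group had miR-146a above background on both its arrays, it was not tested in the limma fit described below. With the software's own detection call, which found it on 10 arrays, it entered the test, and its average difference of 20% minus 3% O2 was -1.26 on the log2 scale (adjusted p = 0.992, unadjusted p = 0.0416, limma). It entered through groups in 3% O2 alone, the side on which it was higher, so that test is no independent support for the direction. By the software's call its differences were -0.44 for P7 minus P3 (adjusted p = 0.491) and -0.89 for Ercc1-/- minus WT (adjusted p = 0.988).

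A single probe carried most calls. For miR-146a the first probe was above background on 6 arrays and the second on none. For miR-146b the first was above background on 5 arrays, all on slide 1, and the second on 11. For miR-155 the first was above background on none and the second on 6. The array where miR-146a was brightest, replicate 1 of P7 WT MEFs in 3% O2, was also the array with the highest summed scaled signal of the 7 blood cell miRNAs, 103 against 19.8 to 86.7 on the other arrays, with 3 of the 7 above background there. Values were raised to the floor before summing, so 19.8 is the level of 7 miRNAs at the floor. Scaling also enlarges undetected signal on dim arrays. Of those 7, the myeloid miRNA miR-223 was above background on 9 of 16 arrays, the pan-leukocyte miR-142-3p on 5 and miR-142-5p on 1, while the erythroid miR-144, miR-451 and miR-486 and the lymphocyte miR-150 were above background on none. On the array where miR-146a was brightest, miR-155 was at the floor, with 0 of 20 spots well above background. The part of blood cells in the signal of miR-146a was not tested.

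**Figure D2:**
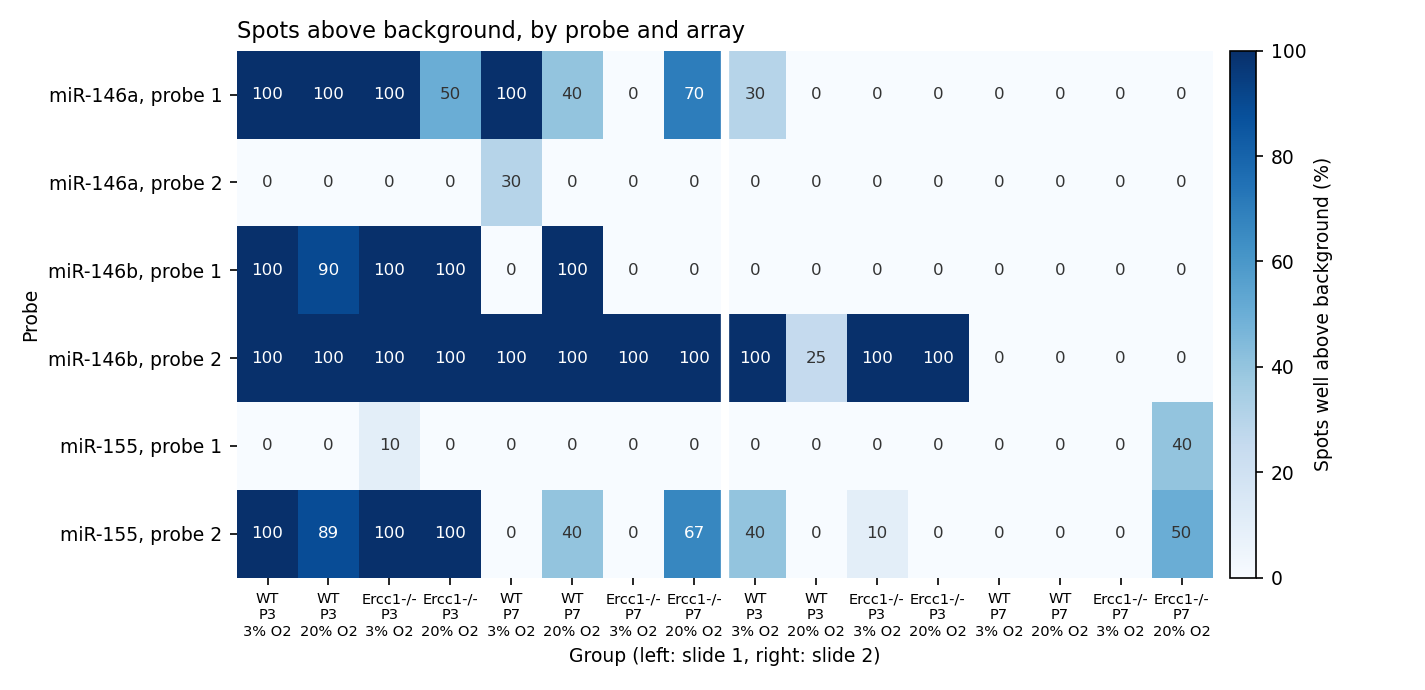
Share of the spots of each probe that were well above background (percent, colour and number), for the 2 probes of each miRNA (vertical axis) on the 16 arrays (horizontal axis, slide 1 at left and slide 2 at right). The second probe of miR-146b is at 100% on all 8 arrays of slide 1 and on 3 P3 arrays of slide 2, while the first probe of miR-155 and the second of miR-146a never reach 50%.

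MiR-146b was the most often detected, and every P3 array of slide 1 was bright. WT MEFs at P3 gave 68.6 and 28.8 in 3% O2 (replicates 1 and 2) and 62.0 and 8.46 in 20% O2. Ercc1-/- MEFs at P3 gave 76.3 and 19.5 in 3% O2 and 86.1 and 20.4 in 20% O2. Of these 8 arrays only the dim WT array in 20% O2 missed the call, with 2 of 18 spots well above background.

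At P7, WT MEFs gave 28.1 and 2.59 in 3% O2 and 78.7 and 1.09 in 20% O2. Ercc1-/- MEFs gave 10.9 and -0.674 in 3% O2 and 22.9 and -1.07 in 20% O2. All 4 P7 arrays of slide 1 were above background and all 4 of slide 2 were at the level of the negative controls. On slide 1, 3 of the 4 P7 arrays were below every P3 array, while WT MEFs in 20% O2 lay within the P3 range.

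For the tests, signals were scaled so that the 57 miRNAs detected throughout had the same mean log2 on each array, set to at least a floor of 2.82 and put on the log2 scale. The fit takes all arrays as independent, though they share 2 slides and each genotype rests on 2 cell lines. The P7 mean of miR-146b over its 4 groups was 2.94 and the P3 mean 4.70, so that it fell by 1.77 (SE 0.64, 95% interval -3.17 to -0.37, 8 arrays against 8, adjusted p = 0.0342, limma). MiR-146b entered the test through 3 P3 groups alone, the side on which it was high, so its test is no independent support for the direction. Beside it, 129 of the 235 mouse miRNAs tested passed in this comparison, which is 54.9%, so that 1 of the 2 tested members passing is close to that share. All tested miRNAs had a median change of -0.39, and relative to that median miR-146b was at -1.38. The change was -0.72 within slide 1 and -2.82 within slide 2, and with the replicate number (the slide) as a block the adjusted p was 0.00461.

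The fall of miR-146b rests on the 4 dim P7 arrays of slide 2, where 3 values sat at the floor. On those arrays the lowest scaled signal that any miRNA above background had was 5.25 to 14.2, against 1.02 to 3.25 on slide 1, so a miRNA near the floor could not have been called there. On the P3 arrays of slide 2 it was 2.80 to 18.0. The scaled P3 signals of miR-146b, 18.5 to 35.7, lay above the values of the dim P7 arrays. On the P3 array with 18.0, replicate 2 of WT MEFs in 20% O2, miR-146b was 22.1 and missed the call. With each array's own lowest signal as its floor the change was -1.003 (SE 0.39, adjusted p = 0.0517, limma), and with normexp background correction it was 0.22 (adjusted p = 0.487). Without the replicate 2 array of P7 Ercc1-/- MEFs in 20% O2 it was -1.49 (adjusted p = 0.0808). The call was also lost when any of 10 further arrays was left out, namely the other 3 P7 arrays of slide 2, all P3 arrays of slide 1 and the P3 arrays of slide 2 other than that of Ercc1-/- MEFs in 20% O2, and over all 16 omissions the change ranged from -2.25 to -1.28 with adjusted p-values from 0.00605 to 0.0886.

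**Figure D3:**
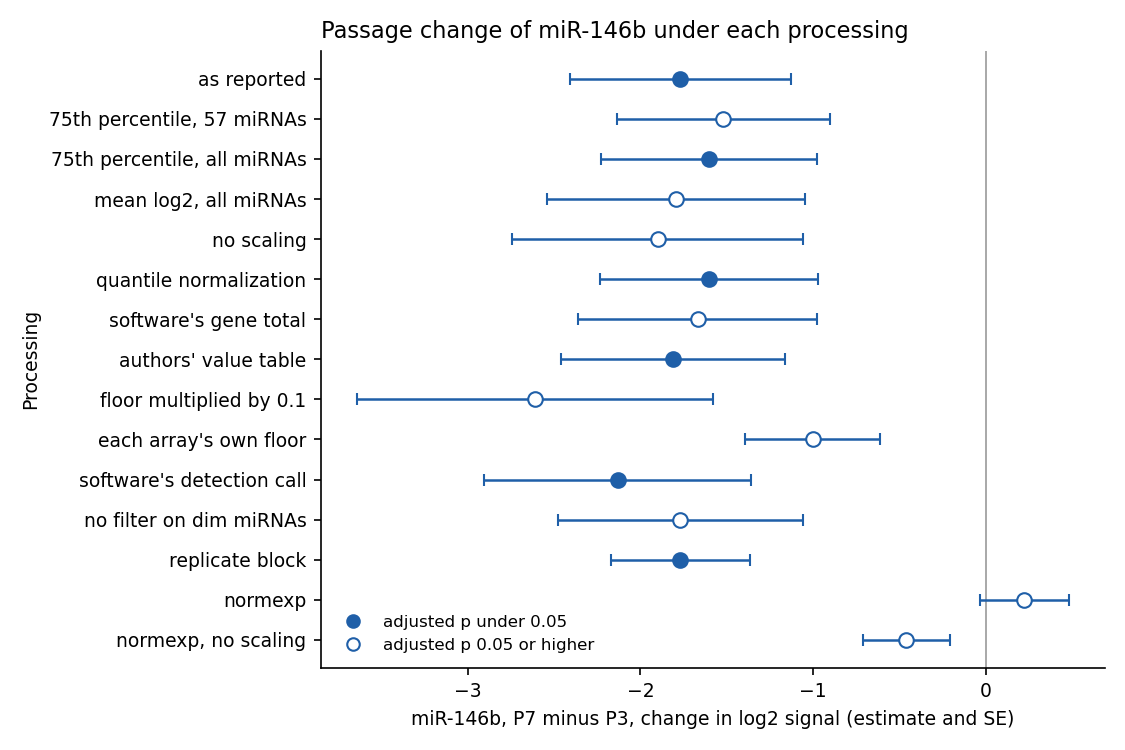
Change of miR-146b from P3 to P7, averaged over genotype and oxygen (horizontal axis, log2 signal, with SE), under the processing used and 14 others (vertical axis), filled where the adjusted p from limma was under 0.05. The value is -1.77 as reported, -1.003 with each array's own floor and 0.22 with normexp background correction, the only value above 0.

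In single groups the passage change of miR-146b did not pass the test. It was -1.87 in WT MEFs in 3% O2 (adjusted p = 0.647) and -1.29 in 20% O2 (adjusted p = 0.587), and -1.92 in Ercc1-/- MEFs in 3% O2 (adjusted p = 0.279) and -2.00 in 20% O2 (adjusted p = 0.240), each with an SE of 1.28 from limma. In these 4 comparisons 0%, 1.28%, 0% and 1.28% of the tested miRNAs passed. Within slide 1 the change was below 0 in 3 of the 4 and 0.39 in WT MEFs in 20% O2, and within slide 2 all 4 lay between -2.97 and -2.71. The order of the group means ran from 4.86 ± 0.42 (log2 scaled signal, SD, n = 2) in P3 WT MEFs in 3% O2 to 2.61 ± 1.58 in P7 Ercc1-/- MEFs in 20% O2. The 4 P3 groups came first, between 4.61 and 4.86, then P7 WT MEFs in 20% O2 with 3.43 ± 2.74. No neighbours in that order differed by more than the larger of their SDs.

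**Figure D4:**
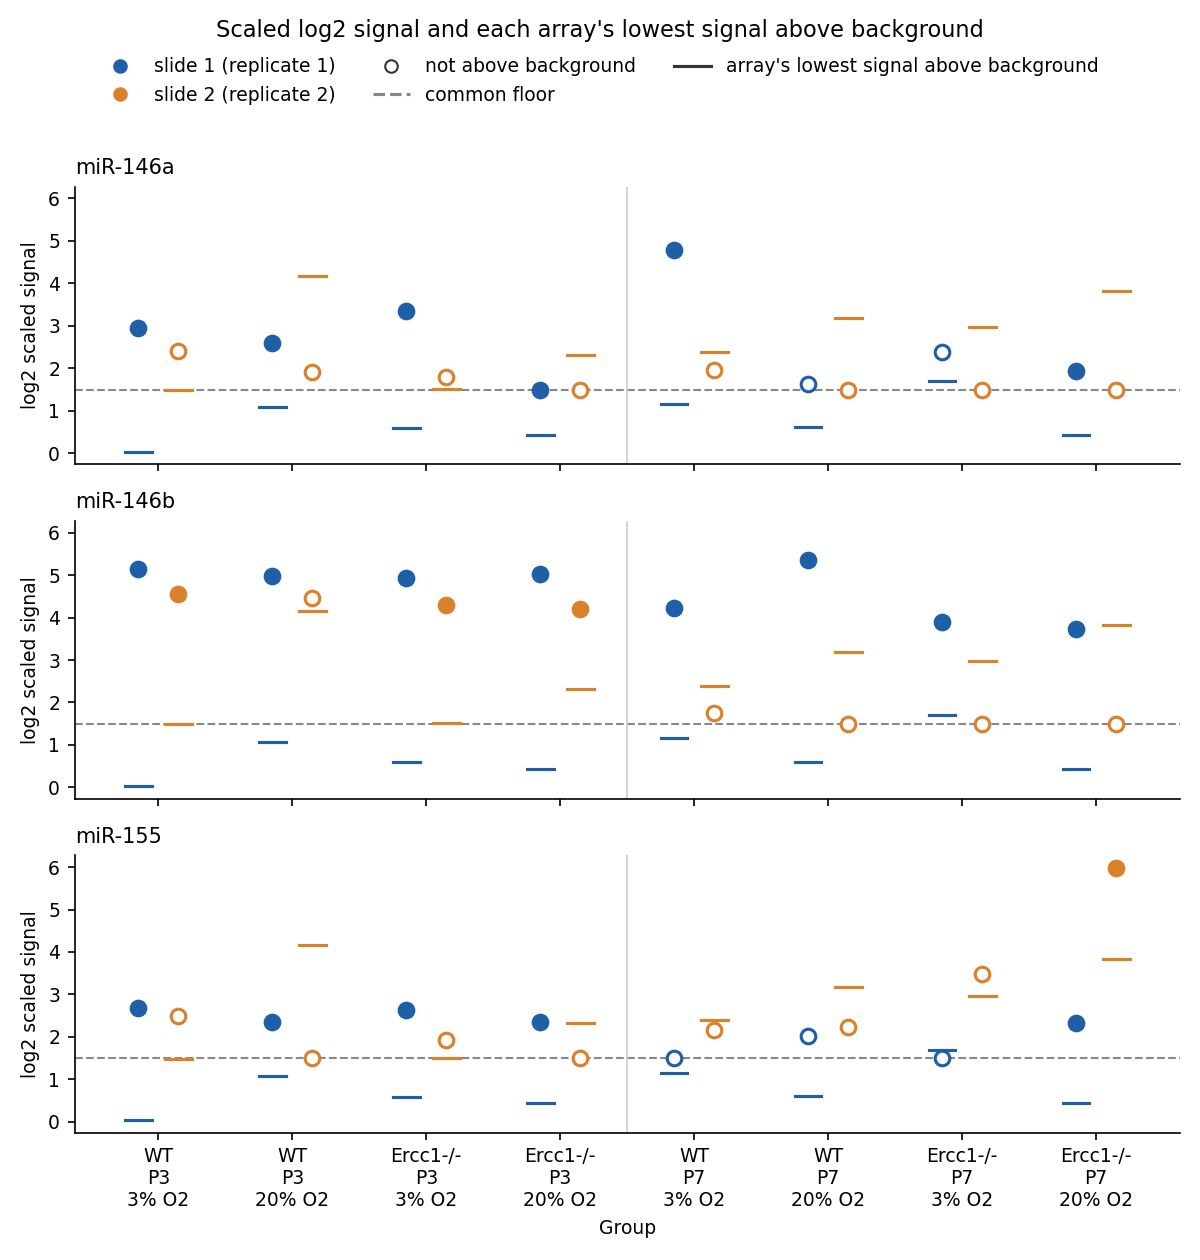
Scaled log2 signal (vertical axis) of the 3 miRNAs on each array by group, with open points not above background, the common floor at 1.497 as a dashed line and the lowest signal above background of each array as a short bar. The bars of the dim slide 2 arrays lie at up to 4.17, well over the floor, and miR-155 on the replicate 2 array of P7 Ercc1-/- MEFs in 20% O2, at 5.99, lies above its bar.

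MiR-155, which promotes inflammatory signalling in immune cells, had P3 signals of 12.3 and 6.88 in WT MEFs in 3% O2 and of 9.96 and 0.694 in 20% O2. Ercc1-/- MEFs at P3 gave 15.5 and 3.73 in 3% O2 and 13.5 and 2.84 in 20% O2. All 4 P3 arrays of slide 1 were above background and none of slide 2.

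At P7, WT MEFs gave 4.18 and 3.43 in 3% O2 and 7.76 and 1.93 in 20% O2, none above background. Ercc1-/- MEFs at P7 gave 1.16 and 4.48 in 3% O2, neither above background. In 20% O2 they gave 8.72 and 10.8, and both arrays were above background. P7 Ercc1-/- MEFs in 20% O2 were thus the only group in which either miR-155 or miR-146a was above background on both arrays. The replicate 2 array of that group is the dimmest of all, and its signal of 10.8 became 5.99 on the scaled log2 scale, against 1.497 to 3.47 on the other 15 arrays. Its first miR-155 probe had 4 spots well above background, against at most 1 on the other 15 arrays, and 95% of its negative control spots were below 5.24. The summed scaled signal of the blood cell miRNAs was 68.5 on that array, with 0 of 7 above background, and 19.8 on replicate 1 of the group. The 19.8 is about the level of 7 miRNAs at the floor. The 68.5 is undetected signal enlarged by the scaling of this dim array, so the 2 sums do not show a difference in blood cell miRNAs.

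MiR-155 entered the limma test only because both arrays of P7 Ercc1-/- MEFs in 20% O2 were above background, so the comparisons that set this group against others describe a group that was chosen as high and support nothing. Scaled to log2, miR-155 had a mean of 4.16 ± 2.58 there (SD, n = 2). It was 2.24 higher than at P3 (SE 1.02, adjusted p = 0.136, unadjusted p = 0.0497), 2.03 higher than in WT MEFs (adjusted p = 0.780) and 1.67 higher than in 3% O2 (adjusted p = 1.00), all by limma. None of these passed, and they came from replicate 2: the changes were -0.02, 0.30 and 0.83 within slide 1 against 4.49, 3.75 and 2.52 within slide 2. Without the replicate 2 array they were 0.41, 0.20 and -0.15. Without the replicate 1 array, with the dimmest array alone left in the group, they were 4.06, 3.86 and 3.502 and lay past the threshold. Unscaled, the group means were 9.74 in P7 Ercc1-/- MEFs in 20% O2, 4.84 in P7 WT MEFs in 20% O2 and 2.82 in P7 Ercc1-/- MEFs in 3% O2. On scaled signals, where the replicate 2 array went from 10.8 to 63.3, and against the lowest signal above background on the dimmer arrays, the folds over these 2 groups were at least 2.94 and at least 2.98, bounds that hold for that scaling only and rest on the replicate 2 array.

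Averaged over genotype and oxygen, miR-155 was 2.65 at P7 and 2.18 at P3, a difference of 0.47 (SE 0.51, 95% interval -0.64 to 1.59, adjusted p = 0.419, limma). It was -0.66 within slide 1 and 1.61 within slide 2, and -0.48 with no scaling between arrays, which moved the median of all tested miRNAs from -0.39 to -1.14. Relative to that median miR-155 was 0.87 higher as scaled and 0.66 higher without scaling. Without the replicate 1 array of P7 Ercc1-/- MEFs in 20% O2 the difference was 0.93 and past the threshold, on the dimmest array alone in that group, and without the replicate 2 array of the same group it was 0.02. The other passage changes, by limma, were -0.76 in WT MEFs in 3% O2 (adjusted p = 0.732), 0.21 in WT MEFs in 20% O2 (adjusted p = 0.906) and 0.21 in Ercc1-/- MEFs in 3% O2 (adjusted p = 0.904). In the last 2 of these the slides had opposite signs. In WT MEFs in 3% O2, P7 was 1.56-fold lower with P7 signals raised to each array's lowest signal above background. That fold is no lower bound, since only 1 of the 2 P3 arrays measured miR-155. The remaining 7 groups had means from 1.83 ± 0.47 in P7 WT MEFs in 3% O2 to 2.59 ± 0.13 in P3 WT MEFs in 3% O2, and no neighbours in that order differed by more than the larger of their SDs.

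**Figure D5:**
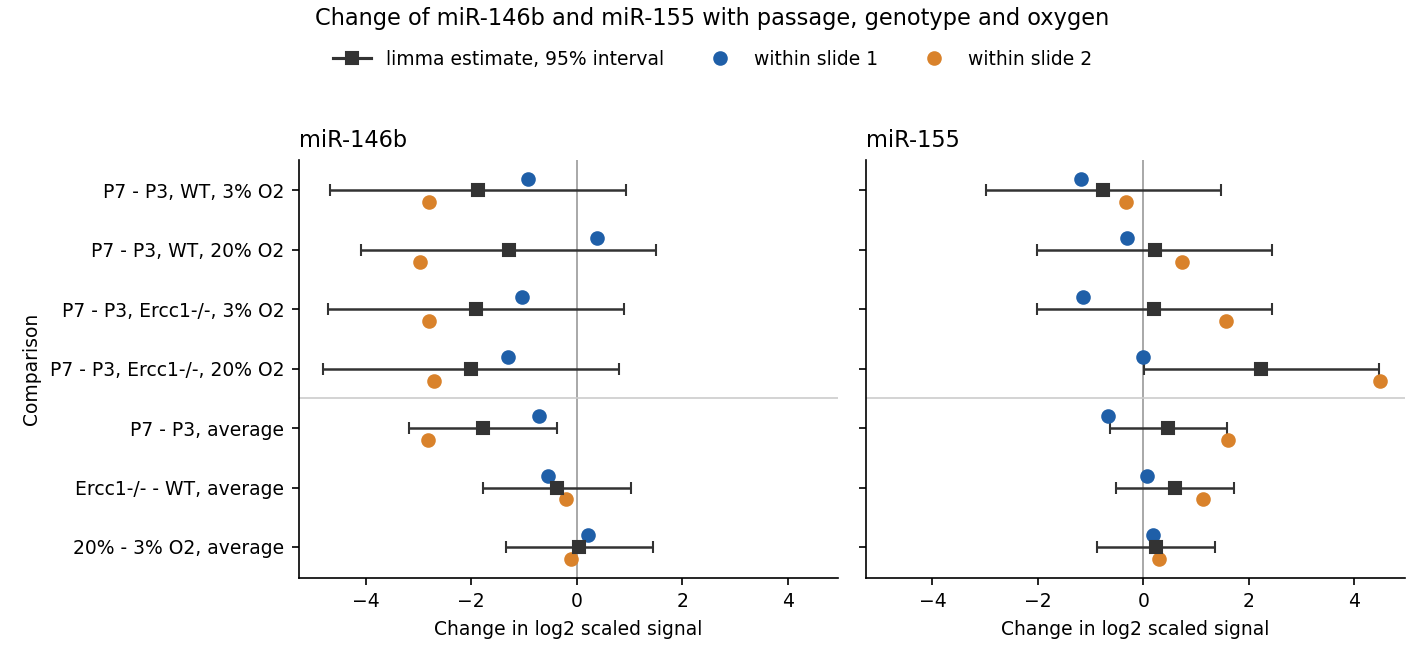
Change in log2 scaled signal (horizontal axis) of miR-146b and miR-155 for passage in each genotype and oxygen level and for the averaged comparisons (vertical axis). Squares are limma estimates with 95% intervals and circles the values within each slide; for miR-146b the interval of the averaged passage change, -3.17 to -0.37, stays below 0, and for miR-155 the slides lie on opposite sides of 0 in that comparison.

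Loss of Ercc1 did not give a difference that passed the test for either tested member. The fit counts 8 arrays a side, but each genotype rests on 2 cell lines, so its intervals do not measure the spread between lines. Averaged over passage and oxygen, miR-146b was 3.64 in Ercc1-/- and 4.002 in WT MEFs, a difference of -0.37 (SE 0.64, 95% interval -1.77 to 1.04, adjusted p = 0.933). MiR-155 was 2.71 in Ercc1-/- and 2.12 in WT MEFs, a difference of 0.59 (SE 0.51, 95% interval -0.52 to 1.71, adjusted p = 0.933), of which 0.07 was seen within slide 1 and 1.12 within slide 2. By limma 0 of the 2 members passed at an adjusted p and 0 at an unadjusted p under 0.05, beside 1.7% of all tested miRNAs adjusted and 17 of 235 unadjusted. Within single levels of passage and oxygen 0 of 2 members passed in each of 4 comparisons, adjusted or not. Beside them 0%, 0.851%, 0% and 0.426% of all tested miRNAs passed adjusted, and 6 to 9 of 235 unadjusted. With the methods' t-test neither member passed in any of 13 single comparisons, which span passage, genotype and oxygen. The share of all tested miRNAs that passed it is not given, so that count says nothing particular to the members. MiR-146b was above background on 6 of 8 Ercc1-/- and 5 of 8 WT arrays, miR-155 on 4 and 2, and miR-146a on 3 and 3.

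Oxygen likewise gave 0 of the 2 members in this fit, adjusted or not, beside 0.851% of all tested miRNAs adjusted and 6 of 235 unadjusted. MiR-146a was not in this fit. MiR-146b was 3.84 in 20% and 3.79 in 3% O2, a difference of 0.05 (SE 0.64, 95% interval -1.35 to 1.45), and miR-155 was 2.53 and 2.29, a difference of 0.24 (SE 0.51, 95% interval -0.88 to 1.36), with adjusted p = 1.00 for each by limma. MiR-155 was above background on 4 of 8 arrays in 20% O2 and 2 of 8 in 3% O2, miR-146b on 5 and 6, and miR-146a on 3 and 3. The intervals of miR-146b and miR-155 allow changes of more than 1.5-fold in either direction.

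P7 Ercc1-/- MEFs in 20% O2, which combine late passage, loss of Ercc1 and high oxygen, were also compared with P3 WT MEFs in 3% O2. MiR-146b was -2.25 (SE 1.28, adjusted p = 0.216) and miR-155 1.57 (SE 1.02, adjusted p = 0.259, limma), beside 2.55% of tested miRNAs that passed. Within the slides miR-146b gave -1.43 and -3.06 and miR-155 -0.35 and 3.49, and miR-155 gave -0.26 without the replicate 2 array and 3.40, past the threshold, without the replicate 1 array of the P7 group, through which alone miR-155 entered the test. The passage change of miR-146b in Ercc1-/- minus that in WT MEFs was -0.38 (adjusted p = 0.898), and that of miR-155 was 1.496 (adjusted p = 0.769). In 20% minus 3% O2 the passage changes differed by 0.25 for miR-146b (adjusted p = 0.996) and 1.499 for miR-155 (adjusted p = 0.996). No miRNA passed either of these tests of a difference between changes by limma (0% of 235), and 11 and 2 miRNAs, neither member among them, had an unadjusted p under 0.05.

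Other miRNAs tied to NF-kB were read from 2 lists. Of 8 miRNAs reported as induced with NF-kB, 4 were tested and 0 rose and 1 fell with passage, with a median change of -0.94 beside -0.39 over all tested miRNAs, of which 53 rose and 76 fell. By limma 3 of the 4 had an unadjusted p under 0.05, beside 150 of all 235. The miRNA that fell was miR-301a, known for repressing an inhibitor of NF-kB, by 1.19 (SE 0.44, adjusted p = 0.0387). It was no longer called under 5 other scalings, from -0.85 to -1.97, or with normexp, at -0.21, which turned the median of the list to 0.14. Of the 16 single omissions of an array it passed in 3, those of either P7 Ercc1-/- array in 20% O2 and of replicate 1 of P7 WT MEFs in 20% O2.

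Of 16 miRNAs reported to restrain the pathway, 14 were tested and 1 rose and 6 fell, with a median of -0.78. So 7 of 14 were called, close to the share over all tested miRNAs, 129 of 235 (54.9%). Of those 53 rose and 76 fell, and the median over all tested miRNAs was -0.39. MiR-199a-3p, a mesenchymal miRNA that is also on the fibroblast list, fell by 2.78 (SE 0.60, adjusted p = 0.00701, limma). MiR-10a, reported to dampen NF-kB in endothelium, fell by 2.70 (SE 0.38, adjusted p = 0.00164), or by 0.19 with normexp (adjusted p = 0.564), and it was above background on 8 of 8 P3 and 2 of 8 P7 arrays, with a fall by 2.30 where each array had its own floor. MiR-15a, which represses cell cycle genes, fell by 1.86 (adjusted p = 0.0174), and let-7i, of the let-7 family that restrains growth, by 1.69 (adjusted p = 0.00819). All 4 were lower at P7 on both slides. The one that rose was miR-17*, named after its value was seen, by 0.93 (adjusted p = 0.0238), with -0.19 in the absence of scaling. It did not pass when any of 5 arrays was left out (adjusted p up to 0.0623), which were replicate 1 of either P3 Ercc1-/- group and replicate 2 of P7 Ercc1-/- MEFs in 3% O2 and of WT MEFs in 20% O2 at each passage. The median of the list was below 0 under each scaling tried, from -1.73 without scaling to -0.44 with the 75th percentile of the 57 common miRNAs.

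Of 7 miRNAs linked to senescence, as inducers or as tumor suppressors lowered in immortalized MEFs, all were tested and 1 rose and 2 fell with passage, with a median of -0.57. That is 3 of 7 called, beside 129 of all 235 tested miRNAs (54.9%), whose median was -0.39. MiR-22, also on the fibroblast list, rose by 1.47 (adjusted p = 0.0120, limma), or by 0.55 without scaling (adjusted p = 0.384). MiR-28, above background on 5 of 8 P7 arrays, fell by 1.66 (adjusted p = 0.0182) and the p53 target miR-34a by 1.60 (adjusted p = 0.0297), and neither passed without scaling. MiR-34a also failed when any of 9 arrays was left out (adjusted p up to 0.0747), namely all P3 Ercc1-/- arrays and every replicate 2 array apart from that of P7 Ercc1-/- MEFs in 20% O2. In the averaged genotype and oxygen comparisons 0 miRNAs of these 3 lists passed by limma, and 2 and 1, all of the restraining list, had an unadjusted p under 0.05, beside 17 and 6 of all 235. MiR-31 of the restraining list, named after its value was seen, was 1.02 higher in Ercc1-/- MEFs (adjusted p = 0.0682, limma). With the replicate block it passed (adjusted p = 0.0400), beside 7 of all 235.

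Across the 16 arrays the scaled log2 signal of miR-146b was most like that of miR-30b (Pearson r 0.974), miR-148b (0.970) and miR-16 (0.958), out of 216 miRNAs above background on at least 8 arrays. The arrays share 2 slides and differ in brightness, and the values were 0.840, 0.763 and 0.784 within slide 1 and 0.977, 0.991 and 0.957 within slide 2. MiR-146a and miR-155 were above background on fewer than 8 arrays and were not compared in this way.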

How the data were processed

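Per the labels and the study's methods, total RNA was labelled with Cy3, hybridised to 1-colour Agilent mouse miRNA arrays (V2) and extracted with Agilent Feature Extraction (version 10.7.1.1 per the file headers). The authors deposited the scanner output, with the processed intensity of each spot in arbitrary units, and a series table with 1 value per miRNA, used as an alternative. That table is on a linear scale and not centred (array medians from -0.0286 to 3.55 over mouse miRNAs), and its log2 values over 57 common miRNAs followed the spot signals (lowest r 1.00). The methods log2 transformed the data and normalized to each array's mean. Here the deposited intensity was averaged over spots not marked as outliers, then over probes. Scaling gave every array the same mean log2 signal over 57 mouse miRNAs detected throughout, and values were raised to a floor of 2.82. A miRNA entered the test where both replicates of some group were above background, which held for 235 mouse miRNAs. They were fitted with limma 3.58.1 (R 4.3.3) over 16 arrays, 1 mean per group, with Benjamini-Hochberg adjustment at 0.05. The number of arrays limits the precision. The fit takes the 16 arrays as independent, though they share slides and cell lines, so its averaged SEs, intervals and p-values do not rest on independent cultures.

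Replicate numbers coincide with slides. Replicate differences correlated between groups with a median r of 0.61 at P3, 0.81 at P7 and 0.03 between passages (lowest -0.34). These correlations cannot tell a shared slide from a shared cell line. The labels do not say which line is which replicate, so the numbers were not treated as pairs of cell lines. The named miRNAs are the 3 members, the 3 most like each member above background on at least 8 arrays, and at most 4 called miRNAs of each list. The members and lists were chosen with earlier results of these data known. Alternatives changed scaling, background correction (normexp with an offset of 50, on the median spot signal), floor, detection call, filter, block, arrays and test. The fit was also run on simulated arrays with independent noise, without slides, shared lines, brightness differences or a floor. That run therefore cannot check the p-values given here.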

Additional observations from a re-analysis of the deposited data

Results flagged for a closer look

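The difference of miR-155 between 20% and 3% O2 lay on opposite sides of 0 at P3 and P7, in both genotypes. In WT MEFs the 20% minus 3% difference was -0.34 and -0.997 on the log2 scale at P3 (slides 1 and 2) and 0.53 and 0.08 at P7, so that the P7 mean exceeded the P3 mean by 0.97. Neither P7 WT group was above background, and unscaled the P7 pair of slide 2 had 1.93 in 20% and 3.43 in 3% O2. In Ercc1-/- MEFs it was -0.29 and -0.42 at P3 and 0.83 and 2.52 at P7, so that the P7 mean exceeded the P3 mean by 2.03. The value of 2.52 comes from the dimmest array of the series. The reversal was not tested within a genotype, and averaged over genotypes the difference between oxygen levels in passage change was 1.499 (adjusted p = 0.996, limma).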

How the results depend on the processing

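The fall of miR-146b with passage stayed past the threshold under 5 of 14 alternatives, namely the authors' table, quantile normalization, the 75th percentile of all miRNAs, the software's detection call and the replicate block. An exact permutation of all 16 arrays (p = 0.00901, two-sided) takes arrays of one slide as independent, which they are not. It was -1.52 with the 75th percentile of common miRNAs (adjusted p = 0.0556), -1.80 with the mean of all miRNAs, -1.90 with no scaling, -1.67 with the software's gene total, -2.61 with the floor multiplied by 0.1 and -1.77 with no filter (adjusted p = 0.146). With normexp it was 0.22, and with 2 alternatives chosen after seeing the data, normexp without scaling and each array's own floor, -0.46 and -1.003.

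Signs of small values turned. With the 75th percentile of common miRNAs the oxygen difference of miR-146b was -0.066. With that of all miRNAs it was -0.11, and the passage change of miR-155 in Ercc1-/- MEFs in 3% O2 was -0.082. With the mean of all miRNAs the oxygen difference of miR-146b was -0.028, and the passage changes of miR-155 were -0.059 on average, -0.079 in WT MEFs in 20% O2 and -0.47 in Ercc1-/- MEFs in 3% O2. With no scaling those of miR-155 were -0.48, -0.18 and -0.97. With quantile normalization the oxygen difference of miR-146b was -0.12. With the software's gene total the genotype difference was 0.072 for miR-146b and -0.19 for miR-155, and the passage change of miR-155 was -0.36 on average and -0.073 in WT MEFs in 20% O2. With the lower floor and the software's detection call it was -0.21 and -0.24 in Ercc1-/- MEFs in 3% O2.

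With normexp the passage changes of miR-146b in Ercc1-/- MEFs were 0.52 in 3% and 0.45 in 20% O2, and P7 Ercc1-/- MEFs in 20% O2 minus P3 WT MEFs in 3% O2 was 0.33. Those of miR-155 in WT MEFs were 0.31 in 3% and -0.019 in 20% O2, and its oxygen difference in P7 Ercc1-/- MEFs was -0.067. With normexp and no scaling the passage changes of miR-155 were -0.058 on average, -0.032 in WT MEFs in 20% O2 and -0.090 in Ercc1-/- MEFs in 3% O2, and P7 Ercc1-/- MEFs in 20% O2 minus P3 WT MEFs in 3% O2 was -0.0069. With each array's own floor miR-155 changed by -0.65 in WT MEFs in 20% O2. The causes were not tested.

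Leaving out 1 array at a time, the passage change ranged from -2.25 to -1.28 for miR-146b and from 0.017 to 0.93 for miR-155, the genotype difference from -0.85 to 0.12 and from 0.14 to 1.05, and the oxygen difference from -0.43 to 0.54 and from -0.22 to 0.70. For single groups miR-146b changed with passage by -3.11 to -0.62 and -3.23 to 0.65 in WT MEFs (3% and 20% O2) and by -3.12 to -0.71 and -3.12 to -0.89 in Ercc1-/- MEFs, and miR-155 by -1.09 to -0.43, -0.21 to 0.63, -0.78 to 1.19 and 0.41 to 4.06. P7 Ercc1-/- MEFs in 20% O2 minus P3 WT MEFs in 3% O2 ranged from -3.36 to -1.13 for miR-146b and from -0.26 to 3.40 for miR-155. For P7 Ercc1-/- MEFs in 20% O2, the miR-155 differences from WT MEFs and from 3% O2 ranged from 0.20 to 3.86 and from -0.15 to 3.502. A lone array was assumed to vary like the others.

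The replicate block left the call of miR-146b (adjusted p = 0.00461), moved that count of all calls from 129 to 160 and the genotype count from 4 to 7, and changed no other call of a member. The count of passage calls was 44 with no scaling (6 higher and 38 lower), 72 with the gene total, 34 with normexp, 3 with normexp and no scaling and 55 with no filter. Asking for detection on all arrays left no member to test. Dim signals limit all values: miR-146a was measured on both arrays of no group, and the 4 dim P7 arrays could not show a miRNA near the floor.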

Other observations

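The software's own total signal per miRNA exceeded the sum of its probes' spot signals by more than 1.5 times for 43 to 73 miRNAs per array, of 142 to 290 it called detected. The same count was not made for the authors' table, whose values were far lower in the examples that follow. For miR-155 in P3 WT MEFs in 20% O2, replicate 1, the software's total was 86.1 and the authors' value 13.4. For miR-146b in P3 Ercc1-/- MEFs in 20% O2, replicate 2, they were 290 and 27.0. Under the software's detection call miR-146b was detected on all 8 P3 arrays and on 4 of 8 P7 arrays, miR-155 on 5 and 3, and miR-146a on 6 and 4.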
